A study of Mus musculus with 9 samples.

Results

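Markers and transcription factors of the mesenchymal cells of skeletal muscle were followed across mononucleated cells re-isolated from muscle after cell transplantation and resident satellite cells. The genes were Pdgfra, Pdgfrb, Ly6a, Cd34, Thy1, Prrx1, Twist1, Twist2, Tcf21 and Osr1, a list chosen with earlier results of these data known. Every non-control spot whose gene name in the scanner tables equalled one of them was taken. That gave 10 of 27597 named genes, 18 of 41174 probes and 27 of 43379 spots. All 18 probes passed the filter on dim probes, which kept a probe flagged as above background in 3 or more of the 9 arrays.

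The study asked how myogenic progenitors derived from pluripotent stem cells change their expression once they have engrafted. The arrays fell into 3 groups of 3. The groups iPax3 and iPax7 held mononucleated cells re-isolated from the tibialis anterior muscle of mice labelled NSG/NSGmdx4cv, 3 months old. NSG mice lack mature lymphocytes, and mdx4cv is a mutation of the dystrophin gene. Which of the 2 hosts gave each array is not stated in the labels, nor is the gate of the sort, nor whether either line came from a single clone. iPax3 and iPax7 are the names of pluripotent stem cell lines in which Pax3 or Pax7 can be induced. The satellite group held satellite cells from the same muscle of 3-month-old Pax7-ZsGreen mice, a reporter strain in which the Pax7 locus drives a green fluorescent protein. Each group thus differs from the satellite cells in strain, in transplantation and in origin together. Per the labels, 1500 cells from 3 mice per line were sorted in 3 independent experiments, and their RNA was amplified before labelling.

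Fibro-adipogenic progenitors are mesenchymal cells that lie between muscle fibres, are recognised by Pdgfra and by the surface protein Sca-1, the product of Ly6a, and can give rise to fat and to matrix-producing fibroblasts. They multiply after injury and support satellite cells, the stem cells of the fibre. Pdgfra also marks the paraxial mesoderm of the embryo, from which muscle arises, and Ly6a and Cd34 are made by endothelial cells too, so no single gene of the 10 defines a cell type.

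A level is given as log2 of the signal relative to the 75th percentile of its array, so that 0 is the 75th percentile and 1 unit is a factor of 2. Levels are compared between arrays for a given probe, never between probes. A spot counted as well above background by the scanner software's flag, which held for 57.2% to 79.9% of spots per array. A difference was called when its Benjamini-Hochberg adjusted p in limma, over 22694 genes or, where every probe was tested, over 32953 probes, was under 0.05. The probe with the highest mean stood for a gene in the test over genes. Values after ± are standard errors of a difference or standard deviations of a group mean with n = 3, and brackets hold 95% intervals. In bulk samples a smaller number of expressing cells and less RNA per cell cannot be told apart. The iPax3 and iPax7 arrays were scanned on a different day and on different slides from the satellite arrays, so slide, scan day and origin cannot be told apart in comparisons with satellite cells. The satellite arrays also differed among themselves: across genes, the mean correlation of satellite replicate 1 with the 6 iPax3 and iPax7 arrays was 0.67, and that of the other two was 0.58 and 0.57. Replicate 1 was also scanned on another day than they were.

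The probes below are shown because the results for Prrx1 and Osr1 differed between probes, and because Pdgfra had the largest difference of the genes followed. Positions are from the array design on build mm8, and each probe has 60 bases. The probe for Pdgfra near the 5′ end of the transcript, at transcript position 281, lies at chr5:75445285-75445344 on the plus strand. Prrx1 probes 1 and 2 lie at chr1:165098526-165098585 and chr1:165094518-165094577 on the minus strand, and probe 1 falls in the part that encodes the DNA-binding homeodomain. Osr1 probes 1 and 2 lie at chr12:9605243-9605302 and chr12:9605677-9605736 on the plus strand. Sequences are written 5′ to 3′ with no base set apart.
Pdgfra probe 1: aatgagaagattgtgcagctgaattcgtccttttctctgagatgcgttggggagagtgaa
Prrx1 probe 1: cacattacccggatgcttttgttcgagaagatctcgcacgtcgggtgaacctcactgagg
Prrx1 probe 2: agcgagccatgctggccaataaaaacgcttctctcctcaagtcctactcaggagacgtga
Osr1 probe 1: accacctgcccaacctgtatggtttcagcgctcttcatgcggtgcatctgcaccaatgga
Osr1 probe 2: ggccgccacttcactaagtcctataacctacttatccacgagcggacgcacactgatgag
The longest run of bases that any of the 18 probes shared with a probe of another gene was between 12 and 15 bases.

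Pdgfra, the receptor for PDGF-A and PDGF-C that is used to recognise fibro-adipogenic progenitors, was higher in both re-isolated populations than in satellite cells. Probe 1 read 4.67, 4.79 and 4.40 in iPax3 replicates 1 to 3. The iPax7 arrays gave 5.48, 5.20 and 3.81, and the satellite arrays -4.36, -2.91 and -2.24. The groups were far apart, and all 9 values were well above background, so this probe also detected a signal in the satellite arrays. The difference was 7.79 ± 0.79 for iPax3 (221-fold, 6.01 to 9.58, adjusted p = 0.00566 in limma) and 8.0 ± 0.79 for iPax7 (256-fold, 6.22 to 9.79, adjusted p = 0.00416). Against both re-isolated groups together it was 7.90 ± 0.69 (238-fold, adjusted p = 0.00145). Pdgfra passed the test in every alternative run over genes, 21, 21 and 20 of them for the 3 comparisons, with differences between 6.52 and 8.59.

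The second Pdgfra probe, at transcript position 6211 and chr5:75479560-75479619 on the plus strand, was printed in 10 spots. It gave 3.05, 1.48 and 2.53 in the iPax3 arrays, 3.98, 2.51 and 3.33 in the iPax7 arrays and -5.00, -6.30 and -6.41 in the satellite arrays. Only 1 of the 3 satellite values was well above background. The standard deviation over the 10 spots of an array was 0.03 to 0.05 in the re-isolated arrays and 0.09 to 0.64 in the satellite arrays, against 0.74 to 0.80 between the arrays of a re-isolated group and 0.79 between the satellite arrays. In the re-isolated arrays and in satellite replicate 2, at 0.09, the spots were far closer together than the arrays. Satellite replicates 1 and 3 had 0.30 and 0.64. The 10 spots include outliers, 3 in satellite replicate 1 and 1 in satellite replicate 2. With every probe tested, this probe differed by 8.25 ± 0.81 for iPax3 (adjusted p = 0.00622) and by 9.17 ± 0.81 for iPax7 (adjusted p = 0.0032). For both groups together the difference was 8.71 ± 0.70 (adjusted p = 0.00121), and it was 5.09 (adjusted p = 0.00307) when the background was corrected with normexp. As run here, normexp also added a constant of 50 to every signal, which brings low signals closer together on the log2 scale. In that probe-level test for iPax3, leaving out iPax3 replicate 3 ended the call of both Pdgfra probes and leaving out iPax3 replicate 1 ended that of probe 1, with adjusted p up to 0.0617.

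**Figure D1:**
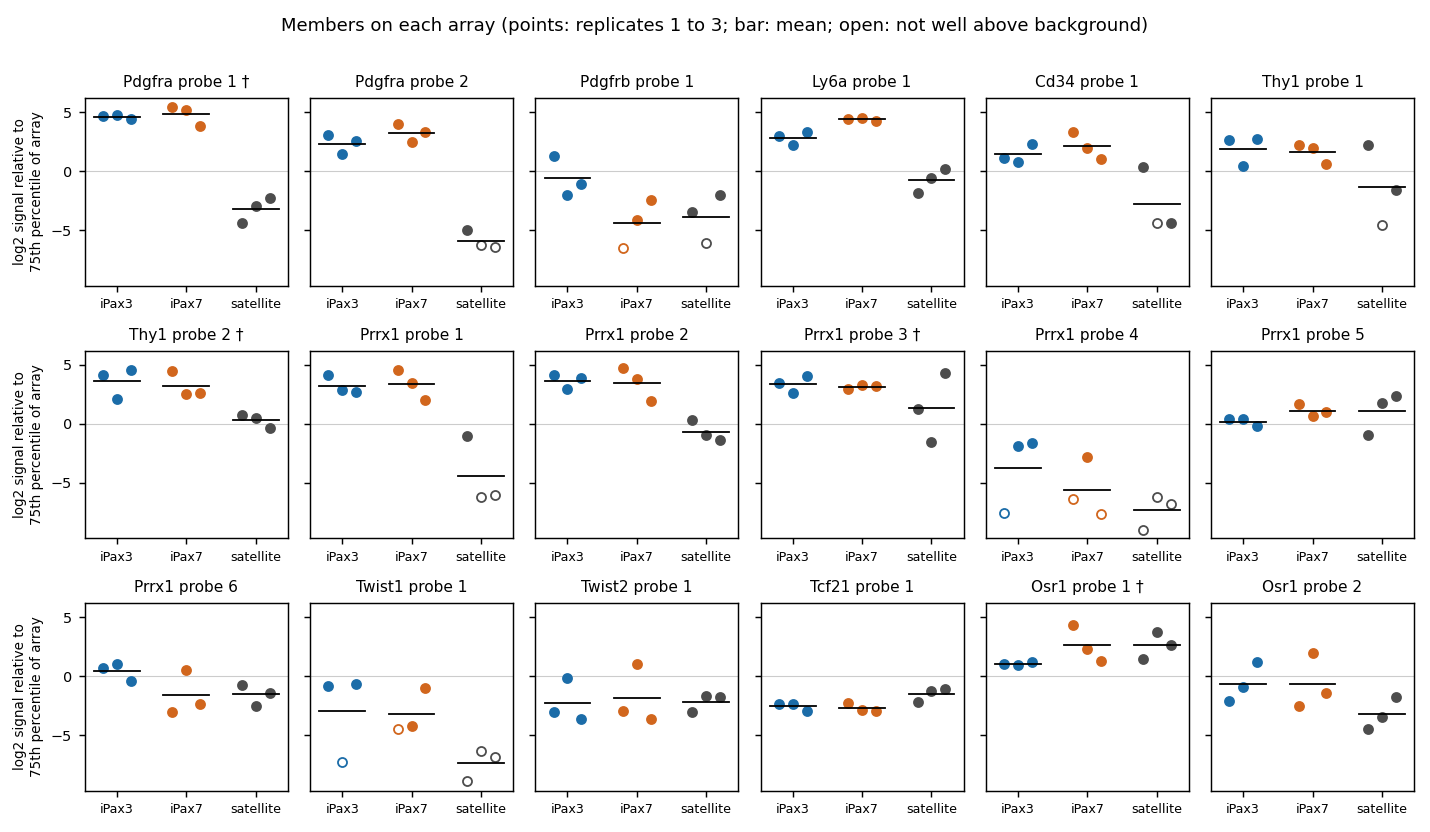
Level of each of the 18 probes on each array, as log2 relative to the array's 75th percentile, in iPax3, iPax7 and satellite cells (3 arrays each). Bars are group means, open points were not well above background, and † marks the probe that stood for a gene with several. Both Pdgfra probes and Ly6a separate the re-isolated arrays from the satellite arrays, while the groups overlap in Twist2.

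Pdgfrb, the sister receptor that pericytes and fibroblasts carry, did not pass the test in any comparison. Its probe read 1.31, -2.0 and -1.07 in iPax3, -6.49, -4.18 and -2.48 in iPax7, and -3.50, -6.10 and -2.05 in satellite cells. The lowest iPax7 value and the lowest satellite value were not well above background. The iPax3 arrays all lay above the satellite arrays, but barely so, the highest satellite value of -2.05 standing next to the lowest iPax3 value. The iPax7 and satellite arrays overlapped. The difference from satellite cells was 3.30 ± 1.40 for iPax3 (0.14 to 6.45, adjusted p = 0.38; 1.65 with normexp) and -0.50 ± 1.40 for iPax7 (-3.65 to 2.65, adjusted p = 0.912).

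The iPax7 values of Pdgfrb all lay below the iPax3 values, by 3.8 ± 1.40 on the log2 scale (-6.95 to -0.65). This was the only member with an unadjusted p under 0.05 between the 2 lines (limma, adjusted p = 1), where 930 of 22694 genes had one and 0 passed the adjustment. Groups that did not overlap, with iPax7 lower, made up 4.89% of all genes. On the slide that carried the 3 iPax3 arrays and iPax7 replicate 1, the difference was -5.91, which rests on that single iPax7 array and has no test.

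Of the genes for the ligands of these receptors, Pdgfa, Pdgfb, Pdgfc and Pdgfd, 0 of 4 passed the test in limma against satellite cells in any comparison. The shares of all genes called in either direction were 0.432%, 0.533% and 1.04% for iPax3, iPax7 and both groups together. Pdgfb read -1.27, -1.45 and -1.56 in iPax3, -2.10, -2.41 and -2.34 in iPax7, and 0.77, 1.24 and 0.35 in satellite cells. Its re-isolated arrays all lay below the satellite arrays, by 2.64 ± 0.53 (adjusted p = 0.0582). Pdgfc had the largest difference of the 4, 4.18 ± 1.82 (adjusted p = 0.318), which came from iPax3 replicates 1 and 3 at 0.52 and 1.57 and iPax7 replicate 1 at 2.72, the other arrays lying between -3.72 and -5.80.

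Ly6a encodes Sca-1, a small surface protein held by a lipid anchor. It read 2.98, 2.19 and 3.31 in iPax3, 4.43, 4.48 and 4.30 in iPax7, and -1.86, -0.60 and 0.16 in satellite cells. The groups did not overlap, and the iPax7 arrays were close together, with a standard deviation of 0.09. The difference was 5.17 ± 0.73 for iPax7 (36-fold, 3.52 to 6.82, adjusted p = 0.021) and 4.38 ± 0.63 for both groups together (20.8-fold, adjusted p = 0.0162). For iPax3 it was 3.59 ± 0.73 (12.1-fold, 1.95 to 5.24), which did not pass (adjusted p = 0.0872).

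The calls of Ly6a were less firm than those of Pdgfra. For iPax7 the call was lost without any one of the 3 iPax7 arrays or without satellite replicate 2 (adjusted p from 0.07 to 0.0883). For both groups together it was lost without iPax3 replicate 1 (adjusted p = 0.0525) or satellite replicate 2 (adjusted p = 0.0733). Slide as a random block gave adjusted p = 0.0687 for iPax7 and 0.0993 for both groups. The difference itself lay between 4.63 and 5.63 for iPax7 and between 3.84 and 4.84 for both groups over all alternatives run. Between the lines, iPax7 lay above iPax3 on all arrays by 1.58 ± 0.73 (-0.07 to 3.22, adjusted p = 1), and by 1.60 within the shared slide. Genes with iPax7 wholly above iPax3 made up 4.45% of all genes.

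The other genes of the Ly6 family on the array did not follow as a group. Of 16 listed genes 14 were tested, and Ly6a alone was called for both groups together, with a family median of -0.32 against -0.16 for all genes. Ly6c1, which endothelial cells and some leukocytes carry, read 3.06, 1.64 and 2.66 in iPax3, 5.91, 3.86 and 3.81 in iPax7 and 1.19, 0.00 and -0.76 in satellite cells. All re-isolated arrays were above the satellite arrays, and the difference of 3.35 ± 0.75 did not pass (adjusted p = 0.0832).

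Cd34, a sialomucin of haematopoietic, endothelial and mesenchymal progenitors and of quiescent satellite cells, read 1.15, 0.79 and 2.35 in iPax3, 3.37, 1.95 and 1.01 in iPax7, and 0.38, -4.42 and -4.36 in satellite cells. Satellite replicate 1 came close to the re-isolated arrays, while replicate 2 was not well above background. The difference from both groups together was 4.57 ± 1.14 (23.7-fold, 1.99 to 7.14, adjusted p = 0.115), and both lines had values of similar size, 4.23 ± 1.32 for iPax3 (adjusted p = 0.25) and 4.91 ± 1.32 for iPax7 (adjusted p = 0.187). With normexp the difference from both groups was 2.65 (adjusted p = 0.123), with 2.35 for iPax3 and 2.95 for iPax7. Leaving out satellite replicate 1 raised the value from the scanner's signals to 6.16 and brought it past the threshold (adjusted p = 0.00954), also in each line (adjusted p = 0.0237 and 0.015). That omission raised the count of all called genes from 236 to 692.

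Thy1, the surface protein CD90 of fibroblasts, T cells and neurons, had 2 probes. Probe 2, at transcript position 1672, read 4.13, 2.08 and 4.60 in iPax3, 4.48, 2.57 and 2.61 in iPax7, and 0.78, 0.52 and -0.37 in satellite cells. All re-isolated values lay above all satellite values, by 3.10 ± 0.78 (8.59-fold, 1.34 to 4.87), and the difference did not pass (adjusted p = 0.118). Probe 1, at position 449 and across an intron at chr9:43797903-43798348 on the plus strand, gave 3.09 ± 1.35 (adjusted p = 0.344). There satellite replicate 1 stood at 2.23, within the range of the re-isolated arrays, against -4.55 and -1.61 for the other two.

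Beside Ly6a, Cd34 and Thy1 the markers of other cell types that carry these proteins were read. The summed signal of 13 endothelial markers, in multiples of the 75th percentile, was 6.92 to 8.02 in iPax3, 11.6 to 65.3 in iPax7 and 13.5 to 24.0 in satellite cells. The number of these markers well above background was 8 to 10 on the iPax3 arrays, 8 to 13 on the iPax7 arrays and 9 to 13 on the satellite arrays. On all 3 iPax3 arrays 7 of them were so, namely Pecam1, Cldn5, Flt1, Esam, Egfl7, Eng and Vwf, and on none of those arrays were Cdh5 and Tek, which encode an endothelial cadherin and the angiopoietin receptor. Tek read 3.25, 1.88 and 0.63 in iPax7, against 1.05, -6.31 and -6.80 in satellite cells. Tek, Cldn5 and Lyve1 lay wholly above iPax3 in iPax7, by 8.5 ± 1.88, 3.54 ± 0.85 and 4.95 ± 1.24. None of these differences was called in limma (adjusted p = 0.71, 0.808 and 0.828). They were 3 of the 13 markers, where 4.45% of all genes lay wholly above. Between the lines 9 of the 13 markers had a positive difference and 4 a negative one. The part of endothelial cells in the levels of Ly6a, Cd34 and Thy1 was not tested. For 13 leukocyte markers the sums were 8.29 to 13.6, 12.8 to 21.4 and 8.06 to 23.9 in the same order. In limma 0 of the 13 endothelial and 0 of the 13 leukocyte markers passed the test in any comparison with satellite cells. Of all genes 0.432%, 0.533% and 1.04% were called in either direction for iPax3, iPax7 and both groups together.

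Prrx1, a homeobox factor of limb mesenchyme and of fibroblasts descended from it, was read by 6 probes that did not give 1 answer. Probe 1, in the homeobox, read 4.13, 2.87 and 2.71 in iPax3, 4.59, 3.47 and 2.06 in iPax7, and -1.07, -6.24 and -6.01 in satellite cells, of which only the value of replicate 1 was well above background. Probe 2 gave 4.16, 2.97 and 3.87 in iPax3, 4.75, 3.79 and 1.93 in iPax7, and 0.36, -0.99 and -1.37 in satellite cells. In both probes every re-isolated array lay above every satellite array. With every probe tested, probe 1 rose by 7.75 ± 1.21 in both groups together (5.01 to 10.48, adjusted p = 0.0257), and probe 2 differed by 4.25 ± 0.81 (2.42 to 6.07, adjusted p = 0.0545).

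The call of Prrx1 probe 1 rested on the arrays at hand: it held in 3 of the 9 fits that left out 1 array, those without iPax7 replicate 1, iPax7 replicate 3 or satellite replicate 1, and the adjusted p reached 0.114 in the others. Without satellite replicate 1 the difference was 9.43 (adjusted p = 0.00314). With normexp background correction it was 4.81 (adjusted p = 0.00493). For each line alone it was 7.68 ± 1.40 in iPax3 (adjusted p = 0.0671) and 7.81 ± 1.40 in iPax7 (adjusted p = 0.0608).

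In the probes toward the 3′ end of Prrx1, both re-isolated groups together did not separate from the satellite arrays. Probe 3, the brightest on average and the one that stood for the gene, read 3.50, 2.61 and 4.02 in iPax3, 2.94, 3.32 and 3.18 in iPax7, and 1.25, -1.54 and 4.29 in satellite cells. Satellite replicate 3 was the highest of the 9 arrays. The gene-level difference was 1.93 ± 1.11 (-0.57 to 4.43, adjusted p = 0.434), and it ranged with the satellite arrays from 0.49 without replicate 2 (adjusted p = 0.861) to 3.41 without replicate 3 (adjusted p = 0.185). It was 2.86 (adjusted p = 0.071) when the 6 probes were averaged. Probe 6, of another transcript of the gene, differed by 0.97 ± 0.92 (adjusted p = 0.666).

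Of the 2 remaining probes, which were designed on clone sequences of the locus, probe 5 lay between probes 2 and 3 and differed by -0.40 ± 0.82 (adjusted p = 0.86). Probe 4 lay upstream of probe 1 and was well above background on 3 re-isolated arrays and on no satellite array. No fold is stated for it, since the iPax7 mean lay below the detection limit of the satellite arrays and the difference was 0.35 with normexp (adjusted p = 0.927). Which transcript forms the probes read could not be settled from these arrays, since no annotation of build mm8 was used here.

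**Figure D2:**
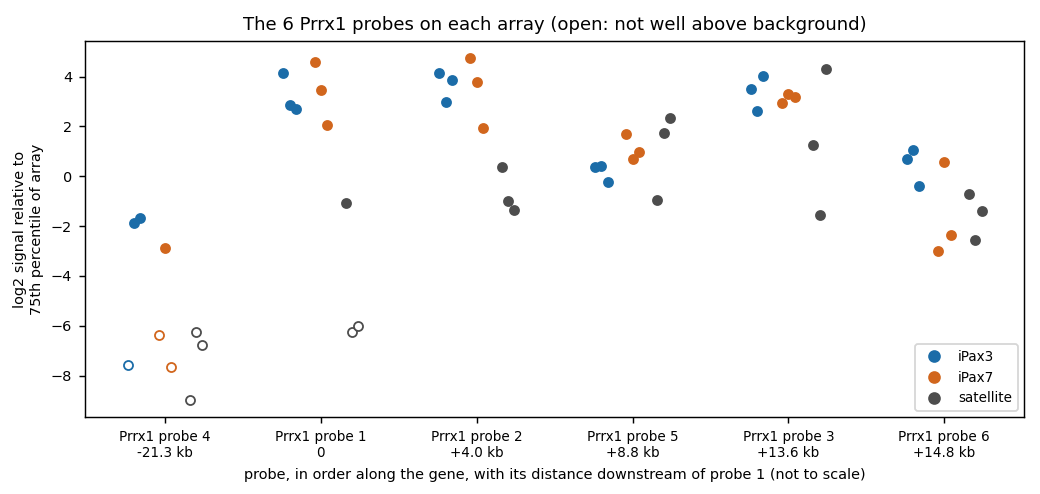
Levels of the 6 Prrx1 probes on the 9 arrays, as log2 relative to the array's 75th percentile, in their order along the gene, with open points for values not well above background. Probes 1 and 2 lie apart between re-isolated and satellite arrays, whereas the re-isolated and satellite arrays overlap in probes 3, 5 and 6. In probe 6 the iPax3 arrays alone lie above the satellite arrays.

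Twist1 and Twist2 encode basic helix-loop-helix factors that hold mesenchymal cells undifferentiated, and both can block MyoD-driven myogenesis. Twist1 read -0.81, -7.27 and -0.63 in iPax3, -4.45, -4.21 and -1.01 in iPax7, and -8.87, -6.33 and -6.88 in satellite cells. It was well above background on 4 of the 6 re-isolated arrays and on none of the satellite arrays. The measured means were -3.06 and -7.36, and the test in limma did not call the difference of 4.30 ± 1.55 (0.81 to 7.79, adjusted p = 0.245). Set against the lowest signal counted as above background on the satellite arrays, the re-isolated mean stood 4.34-fold higher. This is not a lower bound, since iPax3 replicate 2 and iPax7 replicate 1 in that mean were not well above background. The figure also holds only for the scanner's own background subtraction. With normexp the difference was 0.99 for both groups (adjusted p = 0.692), 1.2 for iPax3 and 0.78 for iPax7. The size of the difference thus depends on the processing. The background correction and the constant of 50 added with normexp were not tested apart.

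Twist2 differed more within the groups than between them. It read -3.00, -0.15 and -3.64 in iPax3, -2.90, 1.07 and -3.64 in iPax7, and -3.05, -1.69 and -1.79 in satellite cells. iPax3 replicate 2 and iPax7 replicate 2 stood above all other arrays, on different slides. The difference between re-isolated and satellite cells was 0.13 ± 1.18 (-2.52 to 2.78, adjusted p = 0.969), and its sign turned under median scaling, to -0.18. The interval leaves room for changes of several-fold either way.

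Tcf21 and Osr1 are factors of embryonic mesenchyme, and Osr1 marks fibro-adipogenic progenitors of developing and injured muscle. Tcf21 read -2.37, -2.34 and -2.92 in iPax3, -2.27, -2.85 and -2.93 in iPax7, and -2.19, -1.27 and -1.11 in satellite cells, well above background throughout. Every re-isolated array lay just below the lowest satellite array, and the difference of -1.09 ± 0.56 (-2.35 to 0.17) did not pass (adjusted p = 0.39). Groups wholly below the satellite arrays made up 4.36% of all genes.

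For Osr1 the 2 probes gave differences of opposite sign, and neither passed the test. Probe 1 read 1.07, 0.94 and 1.26 in iPax3, 4.40, 2.30 and 1.30 in iPax7, and 1.51, 3.73 and 2.64 in satellite cells, a difference of -0.75 ± 0.81 for both groups (adjusted p = 0.69). Probe 2 read -2.13, -0.94 and 1.22 in iPax3, -2.48, 1.97 and -1.45 in iPax7, and -4.50, -3.41 and -1.75 in satellite cells, a difference of 2.58 ± 1.19 (adjusted p = 0.364). Averaged, they gave 0.92 (adjusted p = 0.601), so no direction can be stated for the gene. The iPax7 arrays were more spread in probe 1, with a standard deviation of 1.58 against 0.16 in iPax3. Within the shared slide iPax7 replicate 1 exceeded iPax3 by 3.31.

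Over the 10 genes, 1 was called for iPax3, where 0.361% of all genes were called higher and 0.432% in either direction. For iPax7 2 were called, where 0.436% and 0.533% of all genes were, and for both groups together 2, where 0.802% and 1.04% were. None of the 10 was called lower. The median difference of the 10 was 3.30, 2.36 and 2.52, against -0.19, -0.15 and -0.16 for all genes. The difference was positive for 7, 8 and 8 of the 10, and for 45.3%, 45.9% and 45.6% of all genes. The iPax3 arrays lay wholly above the satellite arrays for 5 of the 10 (Pdgfra, Pdgfrb, Ly6a, Cd34 and Thy1), against 8.61% of all genes, and wholly below for Tcf21 and Osr1, against 10.4%. The iPax7 arrays lay wholly above for 5 (Pdgfra, Ly6a, Cd34, Thy1 and Twist1), against 7.63%, and below for Tcf21, against 8.89%. Twist1 was well above background on 2 of the 3 iPax7 arrays and on no satellite array. It passed the filter on dim probes through re-isolated arrays alone, so its place in that count carries no weight. The re-isolated arrays lay wholly above the satellite arrays for 4 of the 10, namely Pdgfra, Ly6a, Cd34 and Thy1, as they did for 4.14% of all genes. These counts depend on the probe that stood for a gene. Prrx1 entered by probe 3, while its probes 1 and 2 lay wholly above in each comparison with satellite cells. Osr1 entered by probe 1, while its probe 2 overlapped in each, with positive differences. Over probes, 2, 3 and 4 of 18 were called, where 0.331%, 0.376% and 0.628% of all probes were called higher. The members share cells and arrays, so their counts are not independent of each other. They were also chosen with earlier results of these data known, so their shares beside those of all genes are descriptive only. Between the lines 0 of 10 genes and 0 of 18 probes were called, and 5 of the 10 genes had a positive difference, against 53.3% of all genes.

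**Figure D3:**
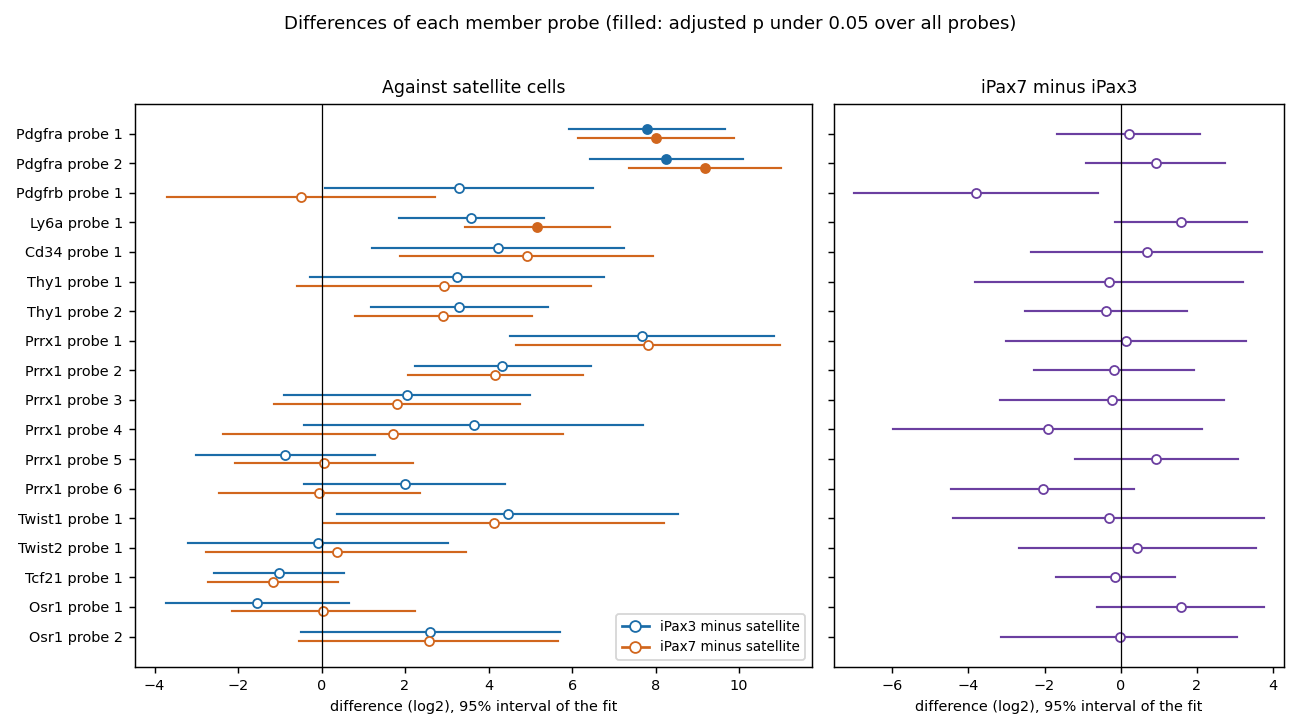
Differences in log2 of the 18 probes, with 95% intervals of the fit, for iPax3 and iPax7 against satellite cells (left) and for iPax7 minus iPax3 (right). Filled points passed an adjusted p of 0.05 over all probes: both Pdgfra probes in each line and Ly6a in iPax7.

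The wider list of fibro-adipogenic and fibroblast genes held 24 genes, of which 22 were tested, and 9 were called higher in both re-isolated groups together, where 0.802% of all genes were, and 0 lower. They were Dcn, Lum, Gsn, Fbn1, Cd55, Col1a1, Col3a1, Col6a3 and Mfap5, most of which encode proteins of the extracellular matrix. Dcn, the proteoglycan decorin that is abundant in these cells, read 7.58, 6.76 and 7.87 in iPax3, 8.37, 7.19 and 7.36 in iPax7, and -0.17, -1.71 and -1.70 in satellite cells. No re-isolated array came near a satellite array, and the difference was 8.71 ± 0.65 (adjusted p = 0.000726). Col1a1, a chain of type I collagen, differed by 6.30 ± 0.65 (adjusted p = 0.00318), and Lum, Fbn1, Mfap5 and Col3a1 by 5.39, 5.36, 5.26 and 5.11. Cd55, a complement regulator, differed by 4.66 ± 0.75 (adjusted p = 0.0263), the actin-severing gelsolin Gsn by 4.45 ± 0.85 (adjusted p = 0.0476), and Col6a3, a chain of type VI collagen, by 3.67 ± 0.59 (adjusted p = 0.0263). For the lines alone, 2 were called in iPax3 (Dcn and Col1a1) and 4 in iPax7 (those 2, Fbn1 and Cd55).

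Not every gene of that list, which was also chosen with earlier results of these data known, followed. The list's median was 2.75, with 18 positive and 4 negative differences. Dpt, which encodes the matrix protein dermatopontin, read 5.66, 4.52 and 5.99 in iPax3, 6.62, 5.41 and 5.74 in iPax7, and 4.94, 3.85 and 6.30 in satellite cells, so the groups overlapped (0.63 ± 0.72, adjusted p = 0.707). Clec3b and Cd248 were likewise not called, at -0.20 ± 0.68 and 1.54 ± 1.18 (adjusted p = 0.913 and 0.559). The summed signal of the 22 genes was 454 to 910 in iPax3, 662 to 1250 in iPax7 and 79.3 to 268 in satellite cells, and 18 to 21 of the 22 were well above background in the satellite arrays. How far other cells in the sort bear on either side was not tested.

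Among 27 tested transcription factors of other mesenchymal cells, of 30 listed, 1 was called higher, where 0.802% of all genes were. Meis1, a homeobox partner of Hox proteins, read 3.61, 1.72 and 2.29 in iPax3, 2.33, 2.09 and 3.70 in iPax7, and -0.27, -4.76 and -3.09 in satellite cells. All 6 re-isolated arrays lay above the satellite arrays, by 5.33 ± 1.0 (adjusted p = 0.0449). Its relative Meis2 had the largest difference of the list, 6.41 ± 1.46 (adjusted p = 0.0868), although iPax3 replicate 1, at -5.61, stood with the satellite arrays at -4.91, -6.27 and -6.73. The list's median was 0.68, with 17 positive and 10 negative differences. Snai1 and Snai2, repressors active in mesenchymal transitions, had negative differences of -4.19 ± 1.98 and -2.08 ± 0.97 and were not called (adjusted p = 0.353 and 0.343).

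Markers of the satellite cell itself checked the labels. Pax7, the factor that defines it, read 2.89, 3.53 and -0.66 in satellite cells, -3.15, -0.53 and -3.52 in iPax3 and -3.90, -3.25 and -3.76 in iPax7, all well above background, and the difference of -4.94 ± 1.05 did not pass (adjusted p = 0.0721). Satellite replicate 3 lay at the top of the iPax3 range. Of 12 tested satellite cell markers 0 had a positive difference and 3 were called lower in both re-isolated groups together (Chrdl2, Heyl and Fgfr4), where 1.04% of all genes were called in either direction, the largest being Chrdl2 at -9.12 ± 0.60 (adjusted p = 0.000623). The muscle gene Myod1 was present in all arrays, at 2.71 to 3.84 in re-isolated and 4.21 to 5.54 in satellite cells (adjusted p = 0.217).

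Further lists cover cells found beside fibro-adipogenic progenitors. Of 11 markers of pericytes and smooth muscle, Myh11, a smooth muscle myosin, was called lower in both groups together (-2.95 ± 0.56, adjusted p = 0.0482) and none higher. Of all genes 1.04% were called in either direction there. Of 7 tenocyte markers 0 were called in limma, the largest difference being that of Tnmd at 3.15 ± 0.93 (adjusted p = 0.173), which was not well above background on any satellite array. Of 7 glial markers 0 were called in limma in any comparison, with a median difference of -1.18. At the share of all genes called, 0 or 1 calls in lists this short say little about these cell types.

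**Figure D4:**
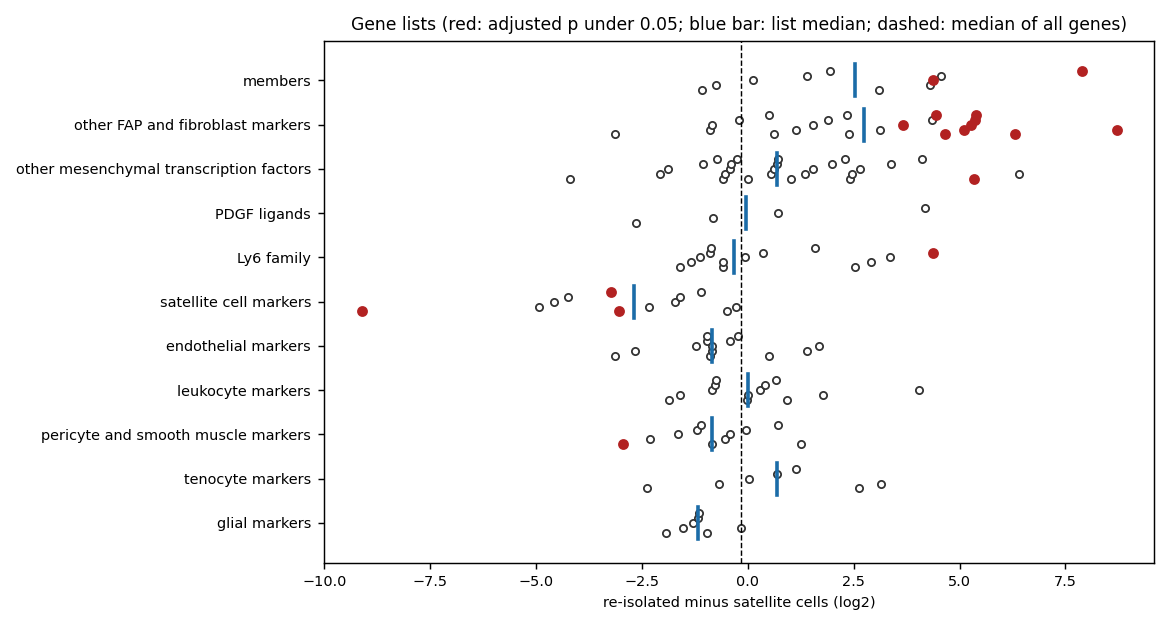
Differences in log2 between re-isolated and satellite cells for the genes of 11 lists, red where the adjusted p was under 0.05, with each list's median (blue bar) and the median of all genes (dashed). The members and the other fibro-adipogenic and fibroblast genes have medians of 2.52 and 2.75, and the satellite cell markers lie to the left.

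The genes whose profile over the 9 arrays lay closest to that of Pdgfra, by the root mean square distance of centred log2 levels among 22553 genes, were Ifi207 at 0.59, Col14a1 at 0.74 and Itga11 at 0.77. Col14a1 encodes a fibril-associated collagen and Itga11 a collagen-binding integrin chain. Ifi207, an interferon-inducible gene, read 2.09, 1.69 and 2.82 in iPax3, 3.77, 2.92 and 2.28 in iPax7, and -6.17, -3.97 and -3.90 in satellite cells. Closest to Ly6a were a transcript with no symbol at 0.64, Ugt2a3 at 0.66 and Ugdh at 0.67, the last encoding the enzyme that makes the sugar donor for glycosaminoglycans. Closest to Twist2 were Lypd6 at 0.54, Snn at 0.60 and Pde9a at 0.66. Being chosen as closest to Twist2, those 3 by selection shared the high values of the second replicate of both lines. Lypd6 read -0.47 and 0.63 there, and between -3.91 and -2.52 on the 4 other re-isolated arrays. Among the members themselves the closest pair was Tcf21 and Osr1, at 1.01, and the next Ly6a and Thy1, at 1.40. The distance is not scaled to a gene's own spread, so genes that vary little lie close together. Tcf21 ranged only from -2.93 to -1.11, and Osr1 entered by probe 1 alone. These distances describe 9 arrays that share groups and slides.

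Promoter sequence was available from RefSeq (GRCm38.p6) for 6 of the 10 genes: Pdgfra, Cd34, Prrx1, Twist1, Twist2 and Tcf21. The 250 bases before each start site were searched on both strands for the E-box CANNTG, the motif bound by basic helix-loop-helix factors such as Twist1, Twist2 and Tcf21, and for its form CATCTG, which is contained in CANNTG. Of 32851 promoters 66.2% held CANNTG and 14.4% held CATCTG or its reverse complement CAGATG. Pdgfra held 1 match, of the form CATCTG, and the other 5 genes none in this window. The Pdgfra sequence is shown because that gene had the largest difference of the 10, with the match in capitals, at chr5:75152001-75152250 on the plus strand.
Pdgfra promoter: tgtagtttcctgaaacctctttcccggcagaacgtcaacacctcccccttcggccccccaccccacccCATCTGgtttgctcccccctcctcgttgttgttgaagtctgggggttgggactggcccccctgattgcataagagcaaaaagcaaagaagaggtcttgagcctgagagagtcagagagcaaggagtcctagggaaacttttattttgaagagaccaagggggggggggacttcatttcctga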

How the data were processed

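The intensity values came from single-colour Agilent scanner tables that the authors deposited, made, per the file headers, by Feature Extraction 10.5.1.1 of Agilent, and the scanner's flags (other values) for well above background and outliers were used as deposited. The deposited log2 table, for which the submitters' processing notes name limma, had column medians of 7.63 to 7.71 and tracked each array's own log2 mean signal with r = 0.988 to 0.999. It is thus uncentred, its adjustment between arrays is unknown, and it served as an alternative. Groups and replicate numbers came from titles. Processed signals were taken as log2 minus each array's 75th percentile. Outlier spots (60 to 342 per array) were left out, spots of a probe averaged, and probes well above background on at least 3 arrays kept. All groups entered a single fit in limma 3.58.1 (R 4.3.3) with a mean per group and no replicate block. Named were all members, called genes of 3 related lists, the largest difference of each list (1 of them is not reported here), the 3 nearest profiles of Pdgfra, Ly6a and Twist2, and Dcn and Pax7. Beyond that rule, Ly6c1, Pdgfb, Dpt, Clec3b, Cd248, Snai1, Snai2, Myod1, the called marker genes, and the endothelial genes were chosen after their values were seen. The members and lists were chosen with earlier results of these data known. Independent cultures or animals per array are not stated beyond the labels, so p-values measure the spread between these arrays. Tested on simulated data over 22694 genes, the fit recovered 30% of 4-unit and 80% of 8-unit log2 changes for both groups together, 18% and 76% for iPax3, and 16% and 70% for iPax7. The simulation used independent noise of equal spread in all groups, changed few genes, and held no slide, scan-day or background effects. Its shares are thus not the power of the fit in these data. Same-numbered replicates did not deviate together (r from -0.129 to 0.063), so they were not paired.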

Additional observations from a re-analysis of the deposited data

How the results depend on the processing

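Pdgfra was called in all alternatives run over genes in the 3 comparisons with satellite cells. The number of members called, 1 for iPax3, rose to 2 with normexp, with only probes well above background on all 9 arrays, with the deposited table and with a trended robust prior. From 2 for iPax7 it fell to 1 under median scaling, slide or scan day as a random block, the replicate block and a fit of only the groups compared. From 2 for both groups it fell to 1 under median scaling, both random blocks and the replicate block. Leaving out each array gave 1 to 2, 1 to 3 and 1 to 3. Called probes ranged from 0 to 4, 2 to 5 and 2 to 6 (alternatives at the probe level were chosen after seeing the data). With the replicate block, whose numbers do not pair the arrays, Ly6a had adjusted p = 0.0743 for iPax7 and 0.0547 for both groups, and all called genes fell from 98, 121 and 236 to 37, 55 and 115. Slide as a random block left 14, 43 and 47 called genes, scan day 27, 36 and 43, median scaling 59, 74 and 133, and fits of only the groups compared 56 and 38. The deposited table gave 186, 196 and 312. Without satellite replicate 1 there were 452, 490 and 692, and over all omissions of 1 array 19 to 452, 35 to 490 and 75 to 692. Median scaling moved the median of all genes from -0.19, -0.15 and -0.16 to -0.59, -0.38 and -0.47. Calls for iPax3 split into 82 higher and 16 lower, and 42 and 17 under median scaling and 75 and 34 with normexp. For both groups they split into 182 and 54, and 165 and 99 with normexp.

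Signs turned only in differences that were not called. These were Twist2 in iPax3 (0.32, slide random block) and in both groups (-0.18, median scaling), and Osr1 averaged over probes (0.53 for iPax3, 0.92 for both groups) and for iPax7 under median scaling (-0.18). Between the lines they were Pdgfra (-0.12 with quantile normalization, -0.10 in the deposited table), Thy1 (0.25 and 0.87 with slide as random and fixed block, also 0.87 within the slide), Twist2 (-0.10 and -0.63 likewise, -0.63 within the slide) and Tcf21 (0.03 with median scaling, 0.07 and 0.27 with slide, 0.27 within it). The fixed block and the within-slide value both rest on 1 iPax7 array. When 1 array was left out, ranges that crossed 0 were -1.15 to 0.60, -1.09 to 1.26 and -0.59 to 0.59 for Twist2 in iPax3, iPax7 and both, -1.61 to 0.55 for Pdgfrb and -0.82 to 0.72 for Osr1 in iPax7, and between the lines -0.12 to 0.72 for Pdgfra, -1.15 to 0.12 for Thy1, -0.61 to 0.09 for Prrx1, -2.51 to 0.81 for Twist1 and -1.0 to 1.5 for Twist2. Dim probes are limited by background: Twist1 differed by 4.30 here and by 0.99 to 5.39 over the alternatives.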
